A study of Mus musculus with 2 samples.

Results

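Nuclear factor κB (NF-κB) is a family of transcription factors that turns on genes of inflammation, and its activity is held back by proteins whose genes it turns on itself. Here the transcripts of 10 genes of this loop were followed in the mouse microglial line BV2 in 2 culture media: the subunit genes Rela, Rel, Relb and Nfkb2, the genes of the cytoplasmic inhibitors Nfkbia, Nfkbib and Nfkbie, the genes of the nuclear IκB proteins Nfkbiz and Bcl3, and Tnfaip3. They were chosen by gene symbol with earlier results of these arrays in view, and they are 10 of the 19938 genes that have a transcript cluster of their own. A transcript cluster is a set of probes read as 1 unit for a gene or a stretch of it, and each of the 10 genes had 1 cluster. The gene of the subunit p50, Nfkb1, had no cluster of its own in the annotation used here.

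BV2 is an immortalized cell line of microglial origin, so it stands in for the macrophages that reside in the brain only in part. According to the methods, cells were plated in DMEM/F12, a medium richer in nutrients than DMEM, and on the next day received either DMEM or fresh DMEM/F12 for 1 d, each with serum and antibiotics. The labels give an incubation of more than 1 d. The DMEM culture was therefore the one whose medium changed in kind. RNA of each medium was hybridized to 1 Affymetrix Mouse Gene 1.0 ST array, and the authors deposited log2 values. Neither medium had a replicate, so no error can be given and no test was made, and every difference below compares these 2 arrays.

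NF-κB acts as pairs of subunits. In resting cells the IκB proteins, of which IκBα, IκBβ and IκBε are encoded by Nfkbia, Nfkbib and Nfkbie, bind these pairs and keep them in the cytoplasm until IκB kinases mark the inhibitors for destruction. The freed pairs then bind κB sites in DNA. In macrophages and microglia the gene of IκBα and the gene of A20 (Tnfaip3), an enzyme that edits ubiquitin chains on signaling proteins, are among the targets that are switched on first, and their products shut the pathway down.

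Matches to κB sites near the gene starts were read from RefSeq sequence, independently of the arrays. Promoter windows (GRCm38.p6, 250 bases before to 50 bases after a gene start) were given for 8 of the 10 genes, and Relb and Nfkbiz had none. Both strands were searched for the κB consensus and for a narrower pattern, GGG and TTTCC with 2 bases of any kind between them, whose matches in the windows of these genes all coincide with matches of the consensus. The windows of the 3 genes with the largest differences between the media and of the gene with the smallest are shown here, written 5′ to 3′ on the strand of the gene, with κB matches in capitals. For Nfkb2 and Tnfaip3, which have 3 and 2 annotated starts, the first listed start is shown. They are chr12:55492598-55492897 (minus strand) for Nfkbia, chr10:19015361-19015660 (minus strand) for Tnfaip3, chr19:46304487-46304786 (plus strand) for Nfkb2 and chr7:28766595-28766894 (minus strand) for Nfkbib.
Nfkbia: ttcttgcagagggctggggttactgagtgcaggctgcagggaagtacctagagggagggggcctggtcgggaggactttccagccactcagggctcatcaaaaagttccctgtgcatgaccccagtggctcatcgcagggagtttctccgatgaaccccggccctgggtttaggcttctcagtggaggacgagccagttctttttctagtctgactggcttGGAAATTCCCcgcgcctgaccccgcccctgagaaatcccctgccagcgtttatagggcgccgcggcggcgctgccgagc
Tnfaip3: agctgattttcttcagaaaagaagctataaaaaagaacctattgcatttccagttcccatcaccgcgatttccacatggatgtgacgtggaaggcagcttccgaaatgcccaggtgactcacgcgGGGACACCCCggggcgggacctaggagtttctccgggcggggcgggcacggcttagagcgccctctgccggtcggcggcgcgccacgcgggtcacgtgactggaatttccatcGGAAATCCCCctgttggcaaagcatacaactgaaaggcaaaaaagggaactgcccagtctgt
Nfkb2: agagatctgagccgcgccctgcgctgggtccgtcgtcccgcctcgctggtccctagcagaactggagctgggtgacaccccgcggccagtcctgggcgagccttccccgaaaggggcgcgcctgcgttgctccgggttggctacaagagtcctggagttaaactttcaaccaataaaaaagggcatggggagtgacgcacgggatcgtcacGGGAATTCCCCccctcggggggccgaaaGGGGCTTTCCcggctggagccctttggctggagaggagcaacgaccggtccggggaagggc
Nfkbib: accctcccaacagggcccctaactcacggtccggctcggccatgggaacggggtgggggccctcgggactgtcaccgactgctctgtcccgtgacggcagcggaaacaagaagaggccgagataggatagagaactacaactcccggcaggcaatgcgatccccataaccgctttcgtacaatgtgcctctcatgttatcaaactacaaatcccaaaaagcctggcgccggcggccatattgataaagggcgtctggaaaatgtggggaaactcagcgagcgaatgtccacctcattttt

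In the Nfkbia window the match GGAAATTCCC lies at positions -29 to -20, counted from the gene start, negative before it and positive within the transcript. Tnfaip3 has GGAAATCCCC at -12 to -3 and a further match, GGGACACCCC, at -125 to -116. Nfkb2 has overlapping matches in the run that begins at -39 from the start shown, and another, GGGGCTTTCC, at -11 to -2. The windows of its other starts overlap and share 1 copy of GGGACTTTCC, the textbook κB site. That of the second listed start also holds GGAATGTCCC, at -236 to -227. The window of Nfkbib holds no match, and neither does that of Rela.

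Of the other genes, Rel, Nfkbie and Bcl3 each have a match, shown here with 10 bases on either side to let their cores be compared. They come from the windows chr11:23770920-23771219 (minus strand), chr17:45555450-45555749 (plus strand) and chr7:19822706-19823005 (minus strand).
Rel: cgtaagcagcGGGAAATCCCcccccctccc
Nfkbie: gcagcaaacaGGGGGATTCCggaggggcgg
Bcl3: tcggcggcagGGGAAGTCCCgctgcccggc

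The match of Rel (-92 to -83) reads as one on both strands. That of Nfkbie lies at -106 to -97, and that of Bcl3 at 3 to 12, within the transcript.

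The κB consensus was thus found for 6 of the 8 genes with a window, where 5.14% of all 27025 genes with a window hold it. By window it was found in 8 of 11, against 4.51% of all 32851 windows. These windows are not all separate, since the overlapping windows of Nfkb2 share a match. The narrower pattern was found for 4 of the 8 (Rel, Nfkb2, Nfkbia and Tnfaip3), against 1.89% of all genes. A shorter pattern, GGG and TTCC with 2 bases between, whose matches can overlap those of both others, was found for 5 of the 8, against 6.58%. A match is a string of letters and not a measured binding site. Nfkbia, Tnfaip3 and Nfkbie are known NF-κB targets, so matches could be foreseen, and the shares only describe these genes.

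**Figure D1:**
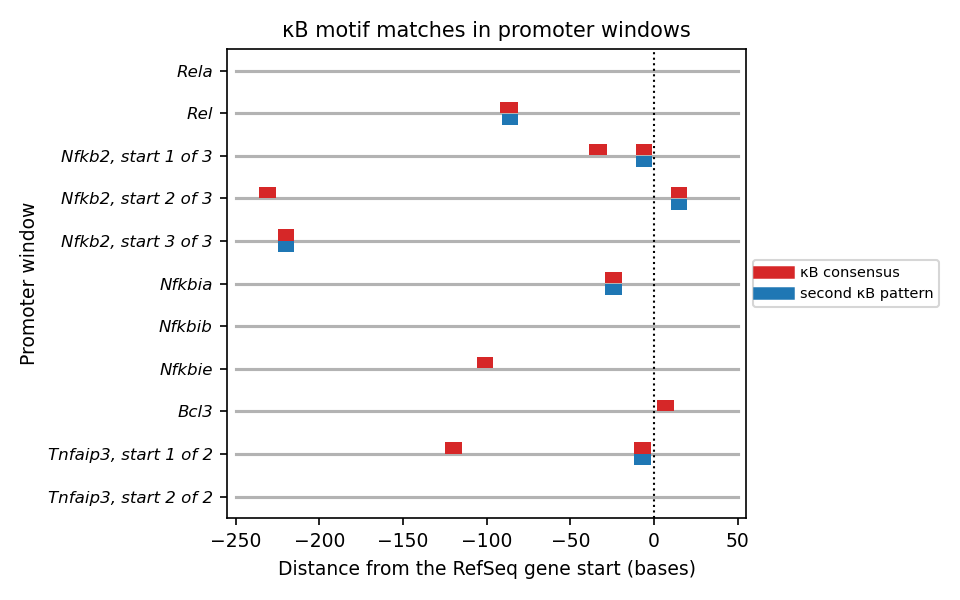
Position of matches to the κB consensus (red) and to the narrower pattern (blue, named the second κB pattern in the legend) in the promoter windows of 8 genes (y axis, 1 line per annotated start), as distance in bases from the RefSeq gene start (x axis, dotted line at the start). Rela, Nfkbib and the other start of Tnfaip3 hold none, and Nfkbia holds its match at -29 to -20.

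On the arrays, all 10 genes were higher in DMEM/F12 than in DMEM, or 9 of 10 with each array centred on its own median, where Nfkbib turned to -0.01. The log2 differences ran from 0.01 to 1.03 with a median of 0.24. Nfkbia, Tnfaip3 and Nfkb2 differed by 0.53 or more, while Rela, Relb, Nfkbib and Nfkbie differed by 0.08 or less. Over all 19938 genes 47.2% were higher in DMEM/F12 and 45.5% lower, with a median of 0.00. At least 1.5-fold higher were 2 of the 10, against 0.928% of all genes, and at least 2-fold higher was 1, against 0.0602%. The genes were chosen with these values known, so the counts describe them and support nothing further. In RNA of a whole culture, more cells that express a gene and more RNA per cell cannot be told apart, nor can the medium and the culture dish with 1 array each.

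**Figure D2:**
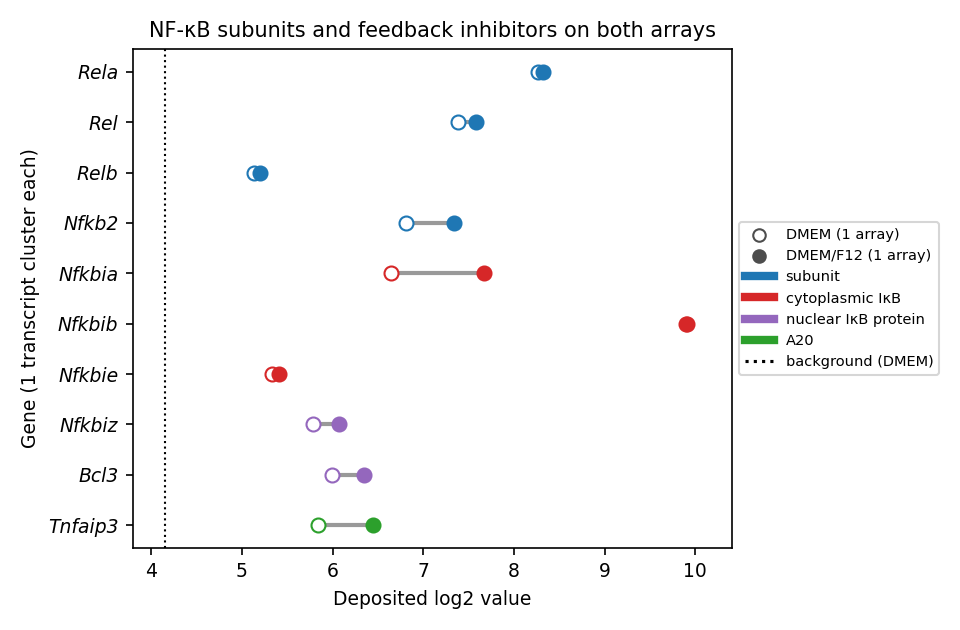
Deposited log2 values (x axis) of the 10 genes (y axis) on the DMEM array (open circles) and on the DMEM/F12 array (filled circles), colored by the role of the protein, with gray lines between the points of 1 gene and a dotted line at the DMEM background of 4.15. The gray line is longest for Nfkbia (6.64 to 7.67) and cannot be seen for Nfkbib (9.90 and 9.91).

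Among the genes of the cytoplasmic inhibitors only Nfkbia passed 1.5-fold. Its log2 value read 6.64 on the DMEM array and 7.67 on the DMEM/F12 array, 2.04-fold higher and rank 9 of 19938 genes from the highest difference down. Nfkbib, the gene of IκBβ, read 9.90 (DMEM) and 9.91 (DMEM/F12), and its difference of 0.01 is the smallest step that values with 2 decimals can show. Nfkbie, the gene of IκBε, read 5.33 (DMEM) and 5.41 (DMEM/F12), a difference of 0.08. The differences of Nfkbia and Nfkbib lay 1.02 apart, and those of Nfkbia and Nfkbie 0.95. IκBβ is known as an inhibitor that is made steadily, whereas the genes of IκBα and IκBε are known NF-κB targets. Nfkbie holds a κB match as Nfkbia does. Any link of this to the differences was not tested.

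Tnfaip3, the gene of A20, had the next largest difference of the 10. Its log2 value read 5.84 (DMEM) and 6.45 (DMEM/F12), which is 1.53-fold higher and rank 158 of 19938. It lies just past 1.5-fold, which is 0.58 on the log2 scale.

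The subunit genes were higher by small amounts other than Nfkb2. Nfkb2 encodes p100, which is cut to the subunit p52 of the alternative NF-κB pathway and which, uncut, also holds subunits back as an IκB protein does. It read 6.81 (DMEM) and 7.34 (DMEM/F12), a difference of 0.53 (1.44-fold, rank 268). Relb, the partner of p52 and itself a known NF-κB target, read 5.13 (DMEM) and 5.20 (DMEM/F12), so that its difference of 0.07 was 0.46 below that of Nfkb2. Rel, the gene of c-Rel, read 7.38 (DMEM) and 7.58 (DMEM/F12), a difference of 0.20. Rela, the gene of p65, the main activating subunit, read 8.27 (DMEM) and 8.32 (DMEM/F12), a difference of 0.05. The inhibitor gene Nfkbia and the activator gene Rela thus differed unequally between the arrays, by 0.98 on the log2 scale.

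The nuclear IκB proteins do not retain NF-κB in the cytoplasm but join subunits on DNA, where they raise or lower transcription. Bcl3, which pairs with p50 and p52, read 5.99 (DMEM) and 6.35 (DMEM/F12), a difference of 0.36 (1.28-fold, rank 1044). Nfkbiz, the gene of IκBζ, which is required for a set of late inflammatory genes such as Il6, read 5.79 (DMEM) and 6.07 (DMEM/F12), a difference of 0.28 (1.21-fold, rank 1929). Both lay under 1.5-fold and 0.08 apart. Nfkbid, the gene of another nuclear protein of this kind (IκBNS), read 6.13 (DMEM) and 6.30 (DMEM/F12), a difference of 0.17.

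Set beside their promoter windows, the 6 genes with a κB consensus match had differences from 0.08 to 1.03 with a median of 0.445, and the 2 genes whose window held none, Rela and Nfkbib, had 0.05 and 0.01. The genes without a window, Relb and Nfkbiz, had 0.07 and 0.28. Nfkbie, with a match and a difference of 0.08, lay close to the genes without. This split was made after the values were seen, and only 2 genes had a window without a match. It describes these genes and supports nothing further, and a link between matches and differences was not tested. Over all genes above background that have a window, the median difference was 0.02 for the 674 with the κB consensus and 0.00 for the 9838 without it, and 53.1% and 48.0% were higher in DMEM/F12. The gap was smaller for the other patterns. With and without the narrower pattern 50.7% and 48.2% were higher, and with and without the shorter one 49.8% and 48.1%. The median was 0.02 with the narrower pattern, 0.00 with the shorter one and 0.00 without either.

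**Figure D3:**
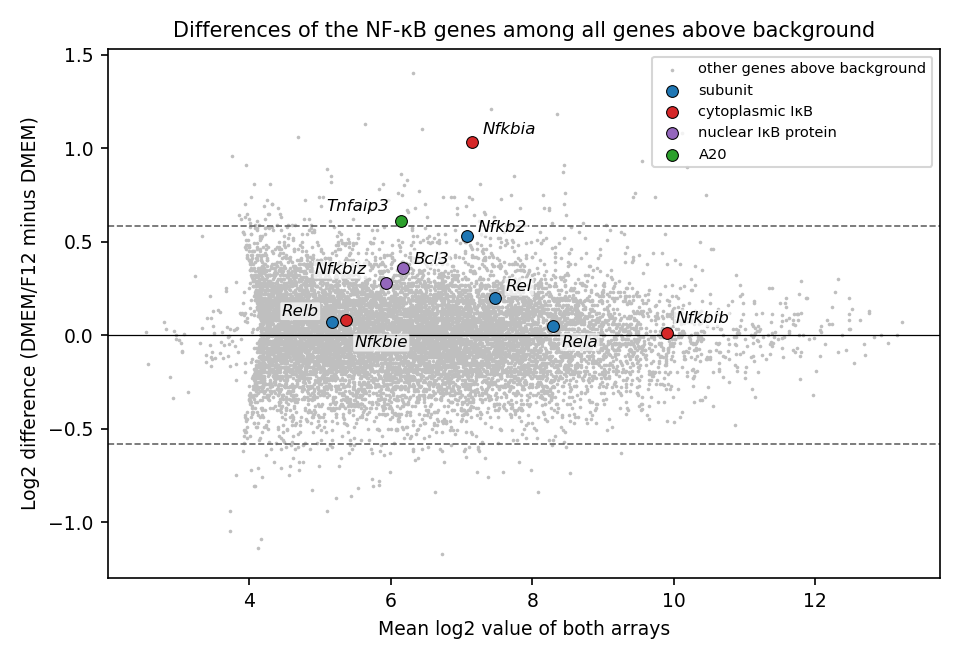
Difference of DMEM/F12 from DMEM on the log2 scale (y axis) against mean log2 value of both arrays (x axis) for all genes above background on at least 1 array (gray), with the 10 NF-κB genes colored by role and dashed lines at 1.5-fold. Nfkbia (1.03) and Tnfaip3 (0.61) lie above the upper dashed line, Nfkb2 (0.53) just below it, and Rela, Relb, Nfkbib and Nfkbie within 0.08 of 0.

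Around these genes, the other negative regulators of the pathway showed 11 of 17 higher, against 47.2% of all genes. Lower were 5, 1 was at least 1.5-fold higher (0.928% of all genes), and the median of this list was 0.15. The list counts Irak2 (0.40, chosen after its value was seen) among the genes higher, although this kinase also passes the signal on. The highest were the genes of A20-binding proteins: Tnip3 with 5.92 and 6.58 (0.66, 1.58-fold) was the only gene of this list past 1.5-fold, and Tnip1 had 6.26 and 6.69 (0.43), each in the order DMEM, DMEM/F12. Chosen after their values were seen, Cyld, a deubiquitinase that like A20 removes ubiquitin chains, differed by 0.39, while Otulin, which removes linear chains, differed by -0.31. Tnip2, the gene of the third A20-binding protein, chosen in the same way, differed by -0.01.

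The upstream signaling genes had small medians, with a few larger differences in both directions. Higher values were found for 6 of 10 kinase genes and lower ones for 3, the median was 0.07, and none reached 1.5-fold. The largest difference was that of Ikbke, the gene of the inducible kinase IKKε, with 6.25 in DMEM and 6.77 in DMEM/F12 (0.52). Of the classical kinase complex, Ikbkg, which encodes its scaffold NEMO, differed by 0.18 and Ikbkb, chosen after its value was seen, by -0.09, while Chuk, the gene of its kinase IKKα, had no cluster of its own. Among 16 genes of adaptors and ubiquitin ligases 9 lay higher and 6 lower, and the median was 0.055. Beside the counts of both lists, 47.2% of all genes were higher and 45.5% lower. The kinase gene Irak1 (6.97 and 7.46) and the protease gene Malt1 (6.97 and 7.34) lay highest, at 0.49 and 0.37, and Myd88, the adaptor of Toll-like receptors, chosen after its value was seen, lay lowest at -0.34. Nfkbil1, a more distant relative of the IκB genes, had 6.49 and 6.67, a difference of 0.18.

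Known targets that encode secreted and surface proteins were higher for 21 of 30 genes, against 47.2% of all genes, and lower for 6, against 45.5%. Their median was 0.225, but 10 of the 30 were not above background on either array. With values below background raised to it the median fell to 0.085, where each of those 10 genes took a difference of 0.02. Over the genes above background alone the median was 0.28, with 16 of 20 higher and 2 lower. Among all 13225 genes above background 6410 were higher and 6265 lower. Of the 30, 4 were at least 1.5-fold higher, against 0.928% of all genes. Past 1.5-fold were Plau, the gene of urokinase (7.99 and 8.90 in the order DMEM, DMEM/F12, 1.88-fold), Tlr2, a receptor of bacterial lipoproteins (6.78 and 7.51, 1.66-fold), Il1rn, the interleukin-1 receptor antagonist (6.72 and 7.41, 1.61-fold), and Il1a (6.61 and 7.26, 1.57-fold). Ccl2, chosen after its value was seen, differed the other way, by -0.58, and Tnf, also chosen so, by 0.27.

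The other target list, mostly of genes for intracellular proteins but also with Slc7a11 and Sdc4, whose proteins lie at the cell surface, was split. In this list 10 of 18 genes were higher, 6 were lower and the median was 0.08. Over all genes 47.2% were higher, and 0.928% were at least 1.5-fold higher. At least 1.5-fold higher were Slc7a11, the cystine transporter (6.85 and 7.66), Myc (3.97 and 4.67) and Acod1, the enzyme that makes itaconate in activated macrophages (7.89 and 8.57). The DMEM value of Myc lay below background, and with it raised to background the difference of Myc was 0.52, under 1.5-fold, which leaves 2 genes of this list past it. Ptgs2, which encodes the prostaglandin-forming enzyme COX-2, read 7.31 (DMEM) and 6.14 (DMEM/F12), a difference of -1.17, which is the lowest of all genes and opposite to that of Nfkbia. The share of all genes at least 1.5-fold lower was 0.727%. These target lists were written with earlier results of these arrays known.

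**Figure D4:**
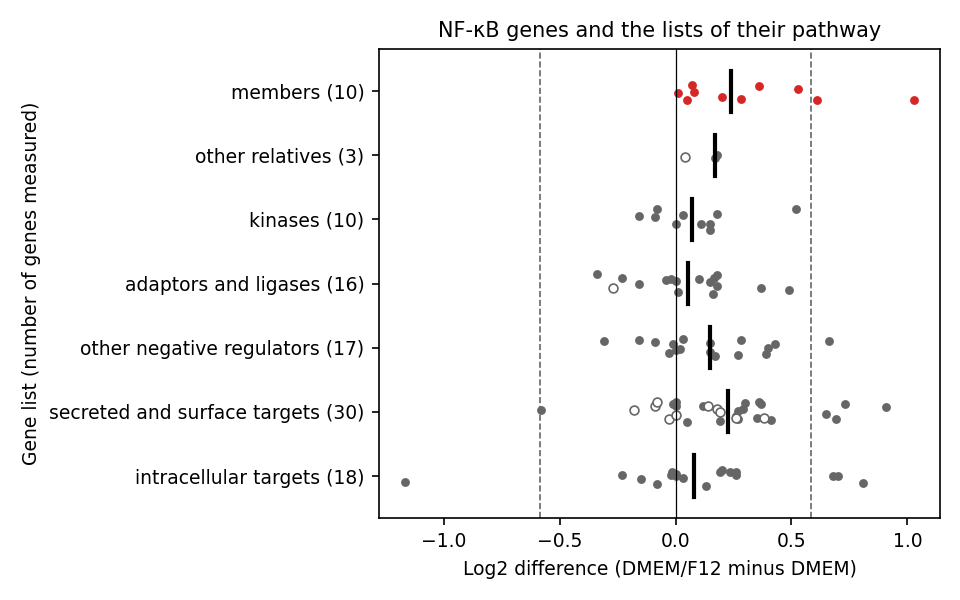
Difference of DMEM/F12 from DMEM on the log2 scale (x axis) for the 10 NF-κB genes (red) and of each gene in 6 lists of their pathway (gray; the y axis names the list and its measured genes), with black bars at the medians, dashed lines at 1.5-fold and open circles for genes not above background on either array. The median of the 10 genes lies at 0.24, that of the kinases at 0.07 and that of the secreted and surface targets at 0.225, with Ptgs2 alone at the far left.

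With 2 arrays, likeness to Nfkbia can only mean a difference of near size. Of the genes above background on at least 1 array, the nearest to it were Serpinb1a, a protease inhibitor (difference 1.06), Cybb, which encodes the superoxide-making subunit of the NADPH oxidase (1.08), Rnase6, an antimicrobial ribonuclease (0.96), and Trp53inp1, a p53 target (1.10), within 0.03 to 0.07 of Nfkbia. Klhl38 (1.13) and Txnip (0.93) followed, both at a distance of 0.10. The place of Rnase6 rests on a DMEM value of 3.27, which is below background. Measured from background instead, its difference was 0.08. Serpinb1a lay only 0.01 above background in DMEM. None of these genes is in the lists of the pathway.

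Of 12 markers of microglia and macrophages 10 were above background on at least 1 array, but the microglial genes Aif1 and P2ry12 were not. Over all genes 66.3% were above background. The list mixes markers of both, so it does not set microglia apart from other macrophages. The differences of the 12 markers ran from -0.66 (Tmem119) to 0.40 (Trem2), with a median of 0.005. The log2 of their summed signal was 12.94 in DMEM and 13.01 in DMEM/F12. Of 23 markers of neurons, astrocytes, oligodendrocytes, fibroblasts and lymphocytes 9 were above background and none differed by 1.5-fold. Their highest value was 6.06, that of the fibroblast marker Col1a1 in DMEM. Passing background therefore does not by itself show that a gene is expressed. All 10 NF-κB genes were above background on both arrays, with Relb nearest to it, by 0.98 in DMEM. Relb and Nfkbie lay below that Col1a1 value on both arrays, and Nfkbiz, Bcl3 and Tnfaip3 in DMEM only. The medians of the arrays over all transcript clusters were 4.75 (DMEM) and 4.77 (DMEM/F12).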

How the data were processed

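RNA from each medium went on 1 Affymetrix Mouse Gene 1.0 ST array. Per the labels the tools were Affymetrix Expression Console and Transcriptome Analysis Console. The authors deposited 28944 log2 values per array. The sources used here do not give versions, summarization, normalization or genome build. Clusters with exactly 1 symbol (21789) were kept and averaged per gene. The log2 difference is DMEM/F12 minus DMEM, without further scaling. Receptor genes of smell, taste and the vomeronasal organ (1243 clusters) set the background at their 95th percentile, 4.15 in DMEM and 4.17 in DMEM/F12, which 13225 genes passed on 1 or both arrays. Ranks, counts and medians describe these arrays, since 1 array per medium allows no test, and their precision is limited by the number of arrays.

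The 10 genes and all lists were chosen with earlier results of these data known. Besides the 10, the rule named in each list the genes above background past 1.5-fold and at least the 2 largest, and the 5 genes nearest to Nfkbia in difference (6 with a tie). Fold limits of 1.5 and 2 were set here. Promoter windows are from RefSeq. Proteins were not analysed here. Python 3.11.15, numpy 2.4.6, pandas 2.3.3, statsmodels 0.14.6 and matplotlib 3.10.9 were used. The steps were tested on simulated data with planted changes larger than that of any gene here, so recovery of smaller ones was not checked.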

Additional observations from a re-analysis of the deposited data

How the results depend on the processing

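The alternatives were median centring, quantile normalization, removal of a loess trend with signal level (span 0.3), values below background raised to it, clusters with several symbols allowed, the brightest cluster per gene and, for counts and medians, only genes above background. A value was taken to have moved past 0.1 on the log2 scale and a count past 1.5 times. Of 305 values recomputed, 300 did not move. Many could not: median centring lowers every log2 difference by the same 0.02, which is under the limit of 0.1. Over these settings Nfkbia lay between 1.01 and 1.04, Tnfaip3 between 0.59 and 0.62 and Nfkb2 between 0.51 and 0.54, and none of the 10 genes shifted by more than 0.02 in size. Median centring gave 1 of the 10 genes lower (Nfkbib, at -0.01) where there were 0, and 1 secreted or surface target at least 1.5-fold lower (Ccl2) where there were 0. The secreted and surface targets that were lower went from 6 to 2 with values raised to background and to 2 with only genes above background. The median of this list went from 0.225 to 0.085 with values raised to background, because 10 of its genes were not above it on either array. With only genes above background that median was 0.28, which does not count as moved. The settings on clusters and on background could not change the 10 genes, which have 1 cluster each and lie above background. No paired analysis was possible because neither medium has a replicate.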
